A study of Mus musculus with 12 samples.

Results

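The core circadian clock genes of skeletal muscle were taken as 10 listed symbols, 3 activators (Arntl, Clock and Npas2) and 7 repressors (Per1, Per2, Per3, Cry1, Cry2, Nr1d1 and Nr1d2). All 10 were present in both deposited count tables, among 21976 genes that the tables share. Expression was measured by RNA sequencing in 12 libraries of muscle from C57BL/6N mice, with 3 libraries in each of 4 groups. The PCN group received a high-fat diet and 4 daily intraperitoneal doses of PCN at 50 mg/kg. PCN is pregnenolone carbonitrile, a steroid that activates the rodent pregnane X receptor. The Vehicle group received the same diet and 4 daily intraperitoneal injections of 30% DMSO in corn oil. The HFD group received the high-fat diet and no injection, and the Chow group regular chow and no injection. Diets began at 6 weeks of age and ran for 18 weeks in all groups, and no group carries an introduced allele, as far as the labels say. The label of PCN does not name its solvent. Which muscle was sampled, and at what time of day, is not given in the labels, and clock transcripts vary with the time of day. The labels do not say that each library came from a separate mouse, so p-values measure the spread between these samples, which may be technical.

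The clock is a transcriptional feedback loop. ARNTL (BMAL1) pairs with CLOCK or its paralogue NPAS2 and binds E-box sequences to switch on the Per, Cry and Nr1d genes. PER and CRY proteins then hold that pair back, and NR1D1 and NR1D2 (REV-ERB alpha and beta) repress Arntl through ROR elements. Transcripts of Arntl therefore peak at another time of day than those of Per and Nr1d genes. In skeletal muscle the loop is known for its control of fuel use.

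The promoters of the members were searched for motifs of this loop. Windows that held such motifs are shown for 4 members that the results below turn on. They are RefSeq sequences on build GRCm38.p6, from 250 bases before to 50 bases after each transcription start, 5′ to 3′ on the strand of the gene, with motif matches in capitals. RefSeq windows were matched for 9 of the 10 members (13 windows), and Per2 is named only. The Arntl window below, the second of its windows, is chr7:113207261-113207560 (plus strand). The Per1 window, the first of its windows, is chr11:69098699-69098998 (plus strand). The Per3 window is chr4:151044616-151044915 (minus strand) and the Nr1d1 window chr11:98775328-98775627 (minus strand).
Arntl: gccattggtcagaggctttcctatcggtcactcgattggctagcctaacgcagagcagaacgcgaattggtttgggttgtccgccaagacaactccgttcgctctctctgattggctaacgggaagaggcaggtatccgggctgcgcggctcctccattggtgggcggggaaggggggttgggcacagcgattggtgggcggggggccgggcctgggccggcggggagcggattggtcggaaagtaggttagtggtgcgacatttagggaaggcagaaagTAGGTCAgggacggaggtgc
Per1: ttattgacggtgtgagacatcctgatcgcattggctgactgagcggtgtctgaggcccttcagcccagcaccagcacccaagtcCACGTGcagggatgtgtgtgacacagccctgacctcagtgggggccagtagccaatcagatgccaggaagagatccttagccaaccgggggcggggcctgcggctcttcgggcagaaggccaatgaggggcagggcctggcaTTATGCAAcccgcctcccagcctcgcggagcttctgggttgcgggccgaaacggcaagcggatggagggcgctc
Per3: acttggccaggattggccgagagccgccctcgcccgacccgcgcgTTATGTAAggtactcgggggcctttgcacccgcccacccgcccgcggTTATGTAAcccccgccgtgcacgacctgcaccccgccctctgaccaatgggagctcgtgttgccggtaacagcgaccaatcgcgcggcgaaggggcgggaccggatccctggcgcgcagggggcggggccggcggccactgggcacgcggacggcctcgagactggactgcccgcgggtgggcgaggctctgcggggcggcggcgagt
Nr1d1: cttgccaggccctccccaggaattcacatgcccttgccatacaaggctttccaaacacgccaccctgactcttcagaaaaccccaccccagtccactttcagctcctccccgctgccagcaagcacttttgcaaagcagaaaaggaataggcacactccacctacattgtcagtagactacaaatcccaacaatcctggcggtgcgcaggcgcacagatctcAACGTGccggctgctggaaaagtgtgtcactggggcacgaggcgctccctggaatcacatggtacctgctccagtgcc

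Motifs were searched on both strands. The ROR element was spelled TAGGTCA or TGGGTCA, the E-box CACGTG, the E-prime box CACGTT, the D-box TTATGNAA and the cyclic AMP response element TGACGTCA. The Arntl window held a ROR element that began 30 bases after the start. The Per1 window held an E-box that began 166 bases before the start and a D-box 24 bases before it. The Per3 window held a pair of D-boxes, 205 and 158 bases before the start, and the Nr1d1 window an E-prime box, read on the other strand as AACGTG, 28 bases before it. Cry1 had an E-box and an E-prime box 60 and 79 bases before its start, and Cry2 an E-prime box 166 bases before. No motif was matched in these windows of Clock, Npas2 and Nr1d2, nor in the first Arntl window and the second Per1 window. Of 32851 windows of the same length, 7.15% held the E-box, 6.453% the ROR element, 4.685% the E-prime box, 3.385% the D-box and 1.79% the cyclic AMP response element. Counted by gene, with a match in any window, the shares in that order were 8.093%, 7.352%, 5.439%, 3.993% and 2.031% of 27025 genes. The E-box shares no full match with the E-prime box, and no 2 matches in the members' windows overlapped. A match describes letters and does not show that a factor binds.

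Libraries held 12770308 (Chow 8) to 19739226 (PCN 27) counts, of which mitochondrial genes took 10.8% to 20.4%. Levels are in counts-per-million units (CPM), TMM-normalized over the 12 libraries unless stated. Markers of skeletal muscle were high in every library. Their summed level was 179010 to 221649 in PCN, 147327 to 200799 in Vehicle, 233621 to 319358 in HFD and 187985 to 259014 in Chow. The muscle pieces also held other cell types, and fewer cells of a type and less RNA per cell cannot be told apart. The slow-fibre myosin Myh7, in CPM without TMM scaling, was 0.998 to 2.22 CPM in the 3 HFD libraries. It was 2.35 CPM in Chow 8 and 190.0 and 308 CPM in Chow 17 and Chow 19. Myh7 was not among the genes in the counts of PCN and Vehicle. The slow-fibre gene Tpm3, the only marker of 10 in both tables, was 73.4 CPM in PCN 5 and 9.42 and 11.7 CPM in the other PCN libraries, 10.3 to 28.5 CPM in Vehicle, 13.7 to 20.1 CPM in HFD, and 15.9, 87.0 and 85.1 CPM in Chow 8, 17 and 19. The titles carry an S number from 1 to 12 whose meaning is not given. HFD holds numbers 4 to 6 and the other groups are spread on both sides of them.

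Arntl (chr7:113207465-113314126), the partner that both other activators need, was lowest in the injected groups and highest in Chow. Its level was 11.2, 10.6 and 28.7 CPM in PCN libraries 5, 11 and 27. It was 14.5, 14.2 and 8.85 CPM in Vehicle libraries 15, 23 and 55. It was 25.5, 24.0 and 17.4 CPM in HFD libraries 4, 30 and 38, and 39.9, 29.1 and 36.8 CPM in Chow libraries 8, 17 and 19. Every Chow library lay above every library of the other groups, and every Vehicle library below every HFD library. PCN 27 stood apart from the other PCN libraries and lay above all 3 HFD libraries. The group means were 16.9 ± 10.2 CPM in PCN, 12.5 ± 3.16 CPM in Vehicle, 22.3 ± 4.31 CPM in HFD and 35.3 ± 5.59 CPM in Chow (SD, n = 3 each).

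Clock (chr5:76209868-76304792), whose protein pairs with ARNTL, had the same order of means in a narrower range. It was 36.2, 35.9 and 47.0 CPM in PCN 5, 11 and 27. It was 41.4, 35.3 and 40.3 CPM in Vehicle 15, 23 and 55. It was 46.9, 50.0 and 43.3 CPM in HFD 4, 30 and 38, and 53.4, 49.5 and 53.7 CPM in Chow 8, 17 and 19. Vehicle lay below HFD without overlap, and HFD and Chow overlapped by a single pair, HFD 30 and Chow 17. PCN 27 again stood above PCN 5 and PCN 11.

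Npas2 (chr1:39193731-39363236), which can take the place of Clock, was near the limit of detection. It had 0 counts in PCN 11, 9 at most in the other PCN libraries, 3 to 11 in Vehicle, 7 to 12 in HFD and 15 to 27 in Chow. The 0 of 16000789 counts in PCN 11 allow up to 0.187 CPM before TMM scaling, counting error only. Its means were 0.204 ± 0.211 CPM in PCN, 0.329 ± 0.233 CPM in Vehicle, 0.613 ± 0.302 CPM in HFD and 1.23 ± 0.276 CPM in Chow (SD, n = 3 each). Npas2 was too low to be tested between injected and uninjected groups or between PCN and Vehicle.

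The Per genes encode the PER proteins of the inhibitory complex. Per1 (chr11:69095217-69109960) was 54.4, 57.4 and 43.0 CPM in PCN 5, 11 and 27, and 73.0, 53.7 and 57.4 CPM in Vehicle 15, 23 and 55. It was 98.5, 113 and 91.6 CPM in HFD 4, 30 and 38, and 61.7, 42.6 and 139.6 CPM in Chow 8, 17 and 19. All 6 injected libraries lay below all 3 HFD libraries. Chow spanned the levels of every other group, with Chow 19 the highest of the 12 libraries and Chow 17 the lowest.

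Per2 (chr1:91415982-91459324) was 24.6, 18.3 and 19.1 CPM in PCN 5, 11 and 27. It was 26.5, 16.6 and 35.6 CPM in Vehicle 15, 23 and 55. It was 14.1, 18.1 and 18.7 CPM in HFD 4, 30 and 38, and 7.13, 12.9 and 10.9 CPM in Chow 8, 17 and 19. Each Chow library was below every other library, while the 3 HFD libraries overlapped both injected groups. 

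Per3 (chr4:151003652-151044665) was 26.9, 24.1 and 26.0 CPM in PCN 5, 11 and 27. It was 23.0, 24.0 and 31.3 CPM in Vehicle 15, 23 and 55. It was 19.4, 24.4 and 22.1 CPM in HFD 4, 30 and 38, and 11.5, 12.9 and 17.1 CPM in Chow 8, 17 and 19. Chow again lay below the other groups without overlap, and HFD reached into both injected groups through HFD 30.

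The Cry genes encode the partners of PER. Cry1 (chr10:85131700-85185064) was 9.44, 8.07 and 15.1 CPM in PCN 5, 11 and 27, and 8.95, 10.2 and 7.88 CPM in Vehicle 15, 23 and 55. It was 6.38, 7.70 and 6.26 CPM in HFD 4, 30 and 38, and 5.19, 6.17 and 5.89 CPM in Chow 8, 17 and 19. The injected libraries were all above the HFD libraries, which were all above the Chow libraries, and PCN 27 was the highest. Cry2 (chr2:92403646-92434043) overlapped in every pair of groups, at 33.9 to 63.6 CPM in PCN, 39.8 to 44.8 CPM in Vehicle, 42.0 to 50.6 CPM in HFD and 31.1 to 52.0 CPM in Chow. PCN 27 was also its highest library.

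The Nr1d genes encode the receptors that repress Arntl. Nr1d1 (chr11:98767932-98775333) was 18.2, 17.6 and 20.7 CPM in PCN 5, 11 and 27, and 16.4, 15.5 and 25.1 CPM in Vehicle 15, 23 and 55. It was 30.0, 46.4 and 35.3 CPM in HFD 4, 30 and 38, and 31.7, 28.9 and 77.7 CPM in Chow 8, 17 and 19. The injected libraries all lay below the uninjected ones, and Chow 19 was the highest library, as for Per1. Exons of Nr1d1 overlap those of Thra on the other strand, and without a stated strand setting their reads cannot be told apart. Exons of Arntl and Cry2 likewise overlap the antisense genes Gm45355 and D930015M05Rik, which are not analysed here.

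Nr1d2 (chr14:18204054-18239127) had the highest level per length of the members, 25.5 CPM per kb of exon in PCN, 27.9 in Vehicle, 25.5 in HFD and 22.5 in Chow. Its level was 136 to 141 CPM in PCN, 147 to 155 CPM in Vehicle, 130.5 to 145 CPM in HFD and 117 to 131 CPM in Chow. Its SD within groups, 0.063 on the log2 scale, was at percentile 0.120 of the 13375 genes tested, so replicates of Nr1d2 agreed more closely than those of nearly all genes. Npas2 was at percentile 94.0 and Arntl at percentile 79.6 on the same measure. Per length, Npas2 was the lowest member, at 0.0427 CPM per kb in PCN, 0.0687 in Vehicle, 0.128 in HFD and 0.257 in Chow.

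**Figure D1:**
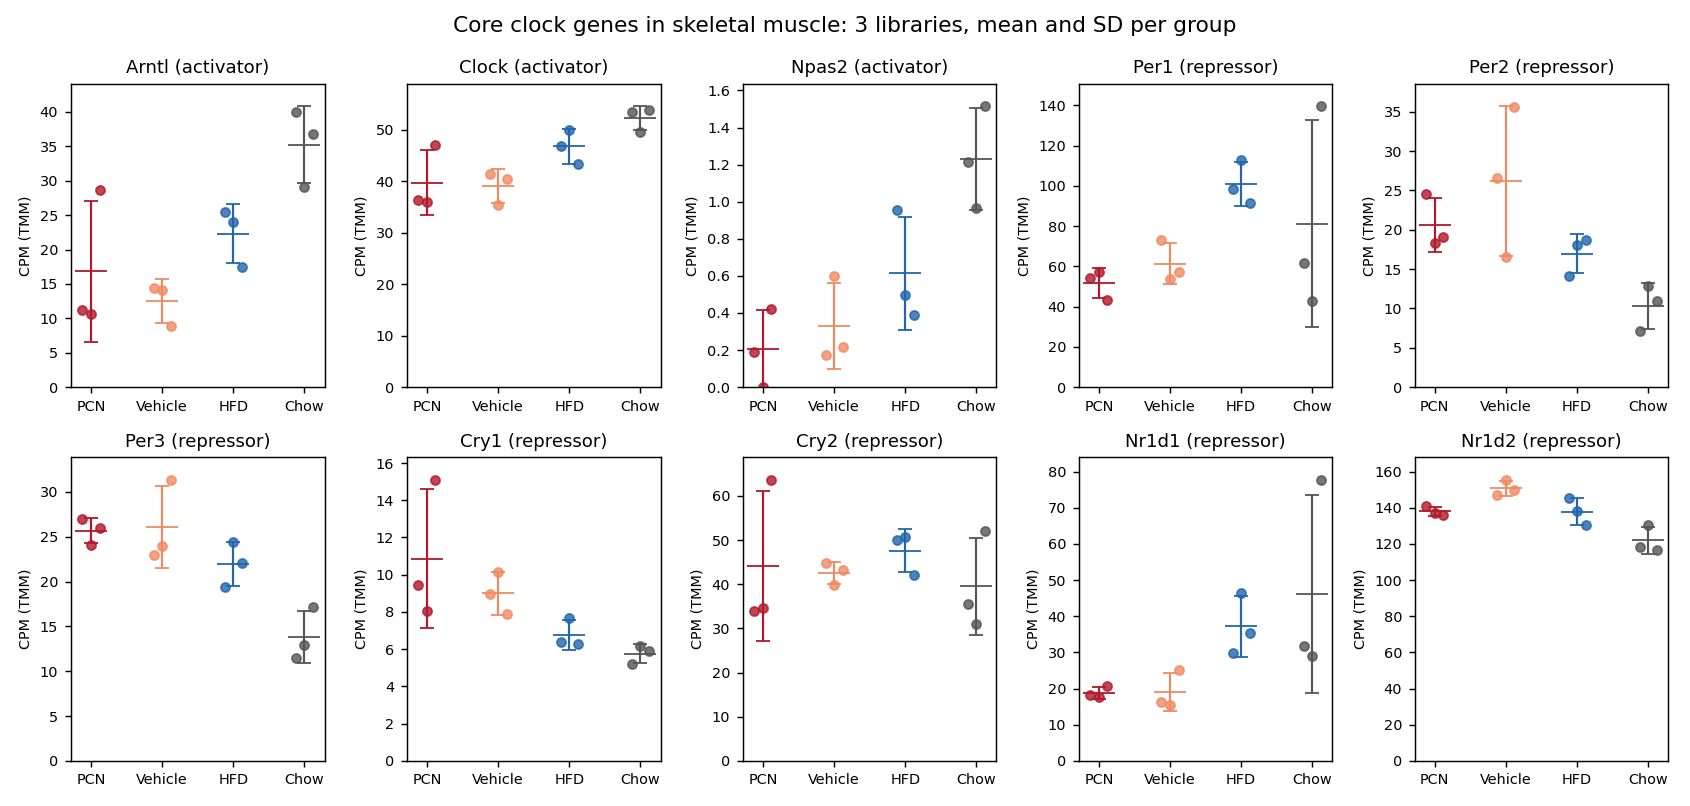
Level of each of the 10 clock genes (vertical axis, CPM, linear from 0) in the libraries of PCN, Vehicle, HFD and Chow, left to right, with points for libraries and the mean and SD of 3 libraries. Arntl and Clock are lowest in the injected groups and highest in Chow, Per2 and Per3 are lowest in Chow, and Chow 19 stands high for Per1 and Nr1d1.

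The order of the 4 group means split the members. Arntl and Clock went, high to low, Chow, HFD, PCN, Vehicle, and Npas2 differed from that only in having Vehicle above PCN. Per2, Per3 and Nr1d2 went Vehicle, PCN, HFD, Chow, and Cry1 had PCN above Vehicle and the same order otherwise. Nr1d1 ran Chow, HFD, Vehicle, PCN, as did Npas2, with means of 18.8 ± 1.62 CPM in PCN, 19.0 ± 5.32 CPM in Vehicle, 37.2 ± 8.38 CPM in HFD and 46.1 ± 27.4 CPM in Chow (SD, n = 3 each). Per1 ran HFD, Chow, Vehicle, PCN and Cry2 HFD, PCN, Vehicle, Chow. Neighbours in these orders often overlapped, PCN and Vehicle for 9 of the 10 members.

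A test of whether the 4 group means were equal called 0 of the 10 members, against 0.179% of 13375 genes (edgeR quasi-likelihood F test, Benjamini-Hochberg adjusted p under 0.05). At an unadjusted p under 0.05 it held 7 members, against 15.5% of all genes. Per3 had the lowest adjusted p of the members, 0.0721, with Per2 at 0.102, Cry1 at 0.124, Nr1d1 at 0.129 and Arntl at 0.141 (edgeR). The F values of these 5 lay at percentiles 96.8 to 99.3 of all genes. Without Chow 19, Per1, Per3 and Nr1d1 passed (edgeR adjusted p = 0.0332, 0.0264 and 0.0374). Calls over all genes were then 216 of 13664, against 24 with all libraries. Arntl passed without PCN 27 (edgeR adjusted p = 0.0327) and Per3 without PCN 11 (edgeR adjusted p = 0.0482). The fit without PCN 27 called 3 of 13665 genes and that without PCN 11 called 186 of 13741.

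Setting HFD against Chow asks how the clock genes of uninjected mice differed between the diets. In HFD, Per2 and Per3 had higher and Arntl and Npas2 lower fitted levels than in Chow, and none of the 10 members passed the adjusted threshold. Per2 averaged 17.0 ± 2.50 CPM in HFD and 10.3 ± 2.92 CPM in Chow, a log2 difference of 0.73 ± 0.21 (SE). Per3 averaged 22.0 ± 2.46 CPM in HFD and 13.9 ± 2.92 CPM in Chow, a log2 difference of 0.67 ± 0.17 (SE). The log2 difference of Arntl was -0.65 ± 0.18 (SE) and that of Npas2 -1.03 ± 0.44 (SE).

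edgeR called 0 of 10 members in HFD against Chow, as it called 0% of 12686 genes, and the lowest adjusted p was 0.505 for Per3. DESeq2 called 0 members as well. At an unadjusted p under 0.05 there were 4 members, those just named, against 7.7% of all genes. Overlap, here and in the next comparisons, was judged on CPM normalized over the 6 libraries of the fit. The groups did not overlap for 4 members higher in HFD (Per2, Per3, Cry1 and Nr1d2) and for 1 lower (Arntl), against 6.38% and 6.39% of all genes. On the 12-library CPM, Nr1d2 overlapped through HFD 38 and Chow 17 (130.5 and 130.7 CPM). Npas2 did not overlap there, at 0.956 CPM at most in HFD and 0.965 CPM at least in Chow. The median absolute log2 difference was 0.31 for the members and 0.18 for all genes.

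The slow-fibre content moved with this comparison, since Chow 17 and Chow 19 carried Myh7 and the HFD libraries hardly did. Of the Chow libraries, only Chow 8 (15.9 CPM) lay within the HFD range of Tpm3 (13.7 to 20.1 CPM). A fit with Tpm3 as a term therefore leans on Chow 8. With that term, the log2 difference of Per1 was 0.68 against 0.32 without it, and that of Nr1d1 was 0.22 against -0.30. Per2 was 1.27 against 0.73 and Per3 0.94 against 0.67. Arntl was -0.88 against -0.65 and Npas2 -1.12 against -1.03, and 0 members passed with the term. Without Chow 19, Per1 and Per3 passed, with log2 differences of 0.97 and 0.86 (edgeR adjusted p = 0.0306 and 0.0243), and Nr1d1 turned to 0.31. That fit called 219 of 12933 genes, against 0 with all libraries. Without Chow 17 the difference of Per1 was 0.0003. With no filter on low counts, Arntl, Per2 and Per3 passed (edgeR adjusted p = 0.0103, 0.00971 and 0.0160), and 237 of 24093 genes were called.

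**Figure D2:**
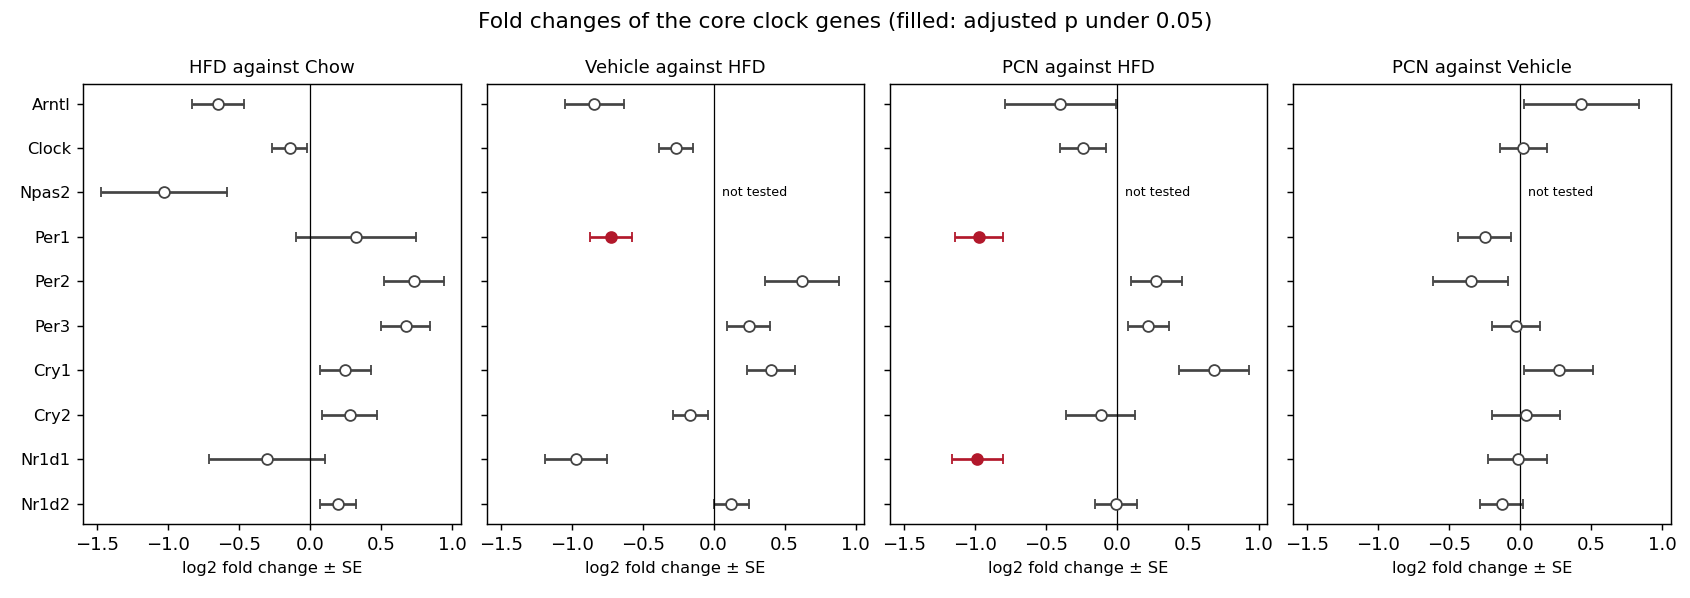
Fitted log2 fold change with its SE (horizontal axis) of each member (vertical axis) in HFD against Chow, Vehicle against HFD, PCN against HFD and PCN against Vehicle, with filled red points for members past the adjusted threshold of 0.05. The filled points are Per1 in Vehicle against HFD, at -0.72, and Per1 and Nr1d1 in PCN against HFD, at -0.97 and -0.98.

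Setting injected against uninjected mice on the high-fat diet compared Vehicle and PCN with the same HFD libraries. These comparisons share HFD with each other and with HFD against Chow, so their values are given side by side and are not independent. Per1 fell in both, with a log2 difference of -0.72 ± 0.15 (SE) in Vehicle and of -0.97 ± 0.17 in PCN. Nr1d1 fell by 0.98 ± 0.18 in PCN and had a log2 difference of -0.97 ± 0.22 in Vehicle, which did not pass (edgeR adjusted p = 0.0653). Per1 averaged 51.6 ± 7.58 CPM in PCN, 61.4 ± 10.3 CPM in Vehicle and 101 ± 10.9 CPM in HFD (SD, n = 3 each).

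In Vehicle against HFD, 1 of 9 members tested was called, against 1.51% of 12746 genes, and it was lower, against 0.989% called lower. Per1 had an edgeR adjusted p of 0.0483 there. Arntl had a log2 difference of -0.84 ± 0.21 (SE, edgeR adjusted p = 0.0827), with averages of 12.5 ± 3.16 CPM in Vehicle and 22.3 ± 4.31 CPM in HFD. Cry1 at 0.40 ± 0.17 and Per2 at 0.62 ± 0.26 had an unadjusted p under 0.05, so that 5 of 9 members did, against 17.8% of all genes. On CPM of the fit, groups did not overlap for Cry1, higher, and for Arntl, Clock, Per1 and Nr1d1, lower, against 12.2% and 11.3% of all genes. On the 12-library CPM, Nr1d2 was also higher without overlap, at 147 to 155 CPM in Vehicle and 130.5 to 145 CPM in HFD.

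In PCN against HFD, 2 of 9 members tested were called, both lower, against 2.94% of 12686 genes and 1.64% called lower. Per1 had an edgeR adjusted p of 0.0263 and Nr1d1 of 0.0278. Cry1, at 0.68 ± 0.25 (SE), was the other member with an unadjusted p under 0.05, which 20.7% of all genes had. Groups did not overlap for Cry1, higher, and Per1 and Nr1d1, lower, against 14.2% and 12.8% of all genes. Arntl had a log2 difference of -0.40 ± 0.39 (SE), and without PCN 27 it was -1.03 (edgeR adjusted p = 0.0472). The fit without PCN 27 called 192 of 13022 genes.

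These calls rest on few libraries. With all 12 libraries in 1 fit, Per1 in Vehicle had an edgeR adjusted p of 0.399 and both calls in PCN 0.121. Each of the 3 calls was lost without HFD 4, HFD 30 or HFD 38, and that in Vehicle also without Vehicle 15 or 23, with edgeR adjusted p-values of 0.0760 to 0.249. Without an HFD library the log2 differences were -0.79 to -0.64 for Per1 in Vehicle, -1.04 to -0.87 for Per1 in PCN and -1.09 to -0.79 for Nr1d1 in PCN. Calls over all genes fell with them in PCN against HFD, to 0 without HFD 4 and 3 without HFD 30 or HFD 38, against 373 with all libraries. Without Vehicle 55, Arntl, Per1 and Nr1d1 passed in Vehicle (edgeR adjusted p = 0.0379, 0.0220 and 0.00283). Calls over all genes rose with them, to 1180 of 13033, against 193 with all libraries. A term for a title S number above 6 was also tried. No HFD library is above 6, and Vehicle 55 and PCN 5 are the only injected libraries at or below it. Differences from HFD under that term therefore rest on Vehicle 55 or PCN 5 alone, and only their sizes are given. In Vehicle the log2 difference was -0.81 for Per1 and -1.32 for Arntl. In PCN it was -0.89 for Per1 and -1.03 for Nr1d1.

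Other measures moved with these comparisons. Fibroblast markers (8 of 8 present, with no marker at 0 in every library) summed to 329 to 535 CPM in PCN, 448 to 562 CPM in Vehicle, 619 to 1123 CPM in HFD and 568 to 883 CPM in Chow. Summed adipocyte markers overlapped between all groups, at 566 to 1576 CPM in PCN, 575 to 1691 CPM in Vehicle, 587 to 1564 CPM in HFD and 954 to 1176 CPM in Chow. Yet 7 of the 8 had a lower fitted level in PCN against HFD (median log2 difference -1.41) and 7 of 8 in PCN against Vehicle (median -1.05), with 0 called by edgeR and 1 at an unadjusted p under 0.05 in each. Erythroid markers summed to 63.9 to 76.4 CPM in PCN, 45.2 to 214 CPM in Vehicle, 48.4 to 60.1 CPM in HFD and 69.8 to 136 CPM in Chow, and HFD overlapped neither PCN nor Chow. Their median log2 difference was 0.45 in PCN against HFD, 1.07 in Vehicle against HFD and -0.71 in HFD against Chow. The summed skeletal muscle markers given above were lower in every injected library than in every HFD library. Fold changes also ran with exonic length across all genes (Spearman's rho, genes being no independent replicates), at -0.313 in Vehicle against HFD, -0.297 in PCN against HFD and 0.257 in HFD against Chow. For the longest of 5 length groups of genes the median log2 difference was -0.15 in Vehicle against HFD, -0.16 in PCN against HFD and 0.10 in HFD against Chow. The part of these measures in the results was not tested.

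PCN against Vehicle compares groups that both had the diet and injections. The label of PCN does not name its solvent, so the compound and a difference in solvent cannot be told apart. The test called 0 of 9 members, as it called 0% of 12833 genes (edgeR, lowest adjusted p of a member 0.998), and DESeq2 called 0 members. At an unadjusted p under 0.05 there were 0 members, against 2.82% of all genes. The log2 differences ran from -0.35 ± 0.27 (SE) for Per2 to 0.43 ± 0.41 for Arntl, and that of Arntl was -0.19 without PCN 27. Nr1d2 alone did not overlap, being lower in PCN (log2 difference -0.13 ± 0.15), against 4.08% of all genes lower and 4.4% higher without overlap. For Nr1d1 the difference was -0.02 ± 0.21 and for Clock 0.02 ± 0.16. The absolute differences had a median of 0.13 for the members and 0.17 for all genes.

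Activators and repressors were then related library by library. Over the 12 libraries, 21 pairs of 1 activator and 1 repressor were correlated on log2 CPM, with Benjamini-Hochberg adjustment over the 21. The permutations exchanged libraries freely across the groups, so these p-values also reflect differences between group means. The correlation was negative for 12 pairs and positive for 9, and 11 pairs passed, 8 negative and 3 positive. Per2 and Per3 ran against all 3 activators, Nr1d2 ran against Arntl and Clock, and Nr1d1 ran with all 3. The largest Pearson's r in size was that of Arntl with Per2, at r = -0.83 (adjusted permutation p = 0.00819) and Spearman's rho = -0.76 (adjusted permutation p = 0.0325). Without the 2 libraries farthest from the median of Arntl, r was -0.72 (adjusted permutation p = 0.0534), past the threshold no longer. Leaving out any 1 library gave r from -0.88 to -0.78, and the pair passed each time. By Spearman's rho, Npas2 with Per2 (-0.86) and Clock with Nr1d1 (0.83) were larger in size. Npas2 with Per2 had r = -0.73, and -0.92 without the 2 libraries farthest from the median of Npas2 (adjusted permutation p = 0.00105). Without PCN 11 alone, which had 0 counts of Npas2, r was -0.91. With a prior count of 0.5 it was -0.61 (adjusted permutation p = 0.0853). The call of this pair was lost in 6 of the 12 fits that left out 1 library.

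Arntl with Per3 had r = -0.76 (adjusted permutation p = 0.0181) and rho = -0.76, and r = -0.60 without the 2 farthest libraries (adjusted permutation p = 0.134). Clock with Nr1d1 had r = 0.78 (adjusted permutation p = 0.0181) and rho = 0.83, with r = 0.71 without the 2 farthest (adjusted permutation p = 0.0534). Arntl with Nr1d1, the repressor that acts on it, had r = 0.63 (adjusted permutation p = 0.0490). Its rho of 0.61 did not pass (adjusted permutation p = 0.0748), nor did its r of 0.74 without the 2 farthest (adjusted permutation p = 0.0534), and the call was lost in 11 of the 12 fits that left out 1 library. Arntl with Nr1d2 had r = -0.72 (adjusted permutation p = 0.0294), rho = -0.72, and r = -0.58 without the 2 farthest (adjusted permutation p = 0.158). Nr1d1 and Nr1d2 thus took opposite signs with Arntl, and their own correlation over the libraries was -0.70.

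**Figure D3:**
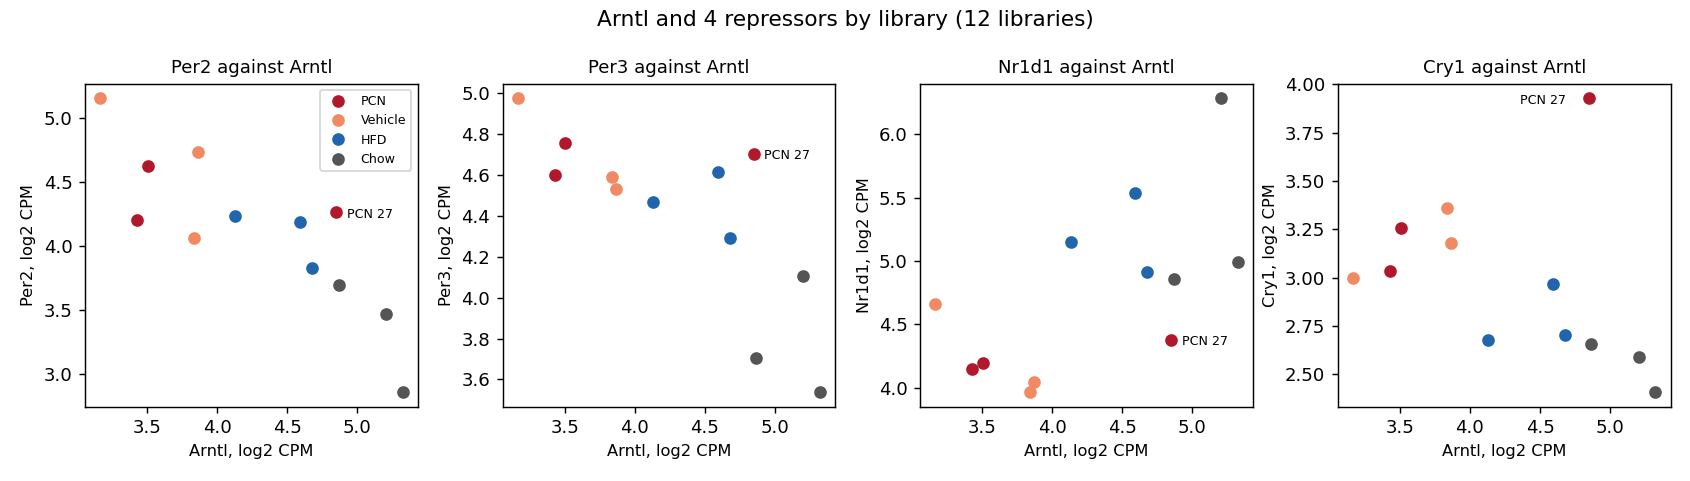
Level of Arntl (horizontal axis, log2 CPM) against that of Per2, Per3, Nr1d1 and Cry1 (vertical axes, log2 CPM) in the 12 libraries, coloured by PCN, Vehicle, HFD and Chow, with PCN 27 named. Per2 and Per3 run down along Arntl (r = -0.83 and -0.76), Nr1d1 runs up (r = 0.63), and PCN 27 stands off the trend for Cry1.

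Within groups most of these relations shrank. With each library taken as its deviation from its group mean, r was -0.49 for Arntl with Per2 and -0.38 for Npas2 with Per2. It was -0.22 for Arntl with Per3, 0.01 for Arntl with Nr1d1 and 0.37 for Clock with Nr1d1. By this measure 1 of the 21 pairs passed, Clock with Cry2 at r = 0.84 (adjusted exact permutation p = 0.0324, with libraries exchanged within groups), and 13 pairs kept their sign. Arntl with Cry1 had r = -0.36 over the 12 libraries, 0.80 within groups and -0.79 without PCN 27 (adjusted permutation p = 0.0239). In PCN 27, Arntl, Clock, Cry1 and Cry2 were each the highest of the PCN libraries. The pooled values therefore hold differences between group means, which the same libraries gave in the comparisons above.

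By table, Arntl with Per2 had r = -0.49 over the 6 PCN and Vehicle libraries and -0.91 over the 6 HFD and Chow libraries. Arntl with Per3 had -0.35 in the injected set and -0.75 in the uninjected set, and Arntl with Nr1d1 had -0.13 in the injected set and 0.26 in the uninjected set. These sets were chosen after seeing the data. By title number, Arntl with Per2 had r = -0.96 over S numbers 1 to 6 and -0.65 over 7 to 12. The count of 11 pairs was 2 without Chow 8, Chow 19 or Vehicle 55, 3 without Chow 17 or Vehicle 15, 5 without PCN 5, and 6 without HFD 4 or HFD 38. With a prior count of 0.5 in the log2 CPM it was 5, and without the 2 farthest libraries it was 3.

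The ratio of Arntl to Per2, per kb of exon, put this on 1 scale. It was 0.356, 0.454 and 1.17 in PCN 5, 11 and 27, and 0.424, 0.666 and 0.194 in Vehicle 15, 23 and 55. It was 1.41, 1.03 and 0.723 in HFD 4, 30 and 38, and 4.36, 1.76 and 2.62 in Chow 8, 17 and 19. Chow was above all other libraries, HFD above Vehicle, and PCN 27 within the range of HFD. The ratio of Arntl to Per3 gave the same order of groups, at 0.533 to 1.41 in PCN, 0.361 to 0.803 in Vehicle, 1.01 to 1.68 in HFD and 2.74 to 4.43 in Chow.

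Among members of like role, Arntl ran with Clock (r = 0.91 over the 12 libraries and 0.73 within groups) and with Npas2 (0.84 and 0.70). Per2 ran with Per3 (0.89 and 0.63), and Per1 with Nr1d1 (0.75 and 0.75). Per3 with Nr1d1 had -0.40 over the 12 libraries and 0.91 within groups. These are descriptions over libraries that share normalization, and carry no test.

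**Figure D4:**
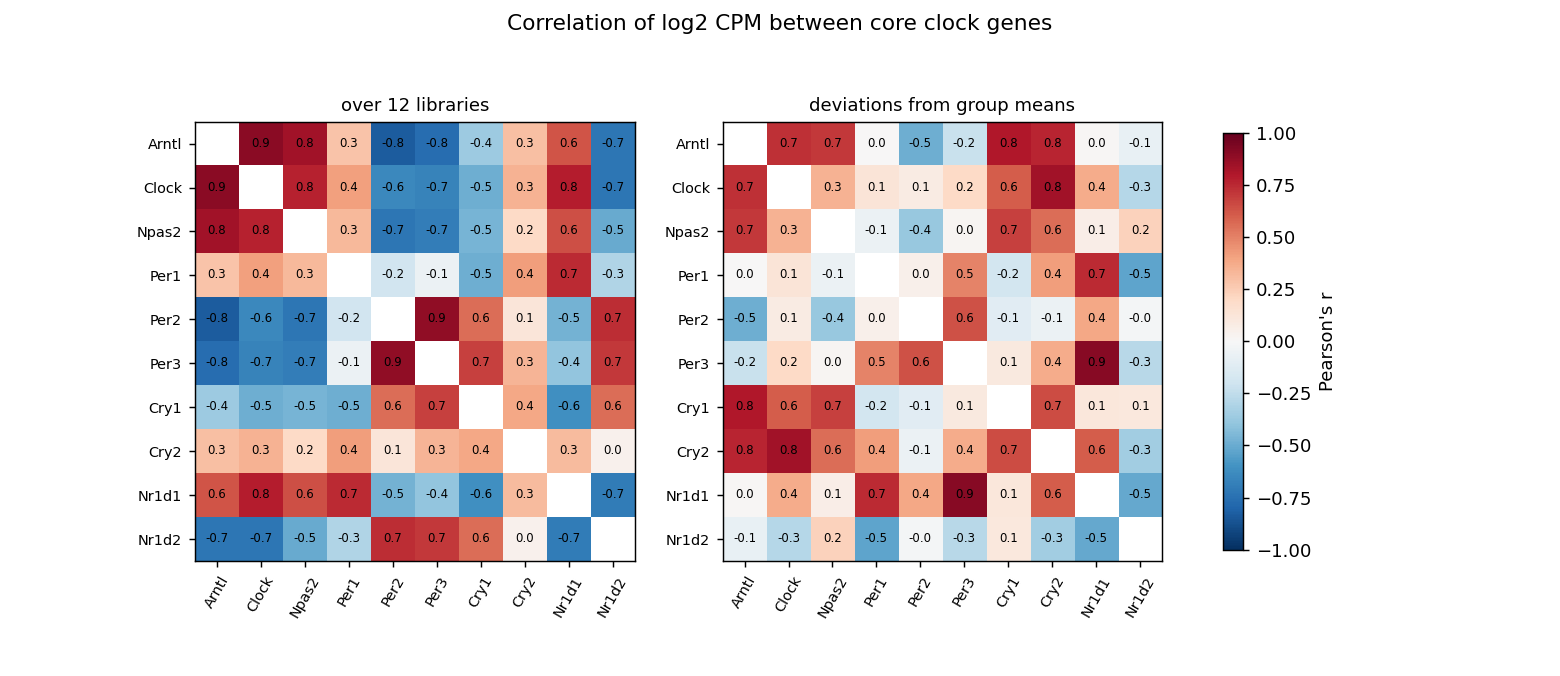
Pearson's r of log2 CPM between the 10 members (rows and columns, colour from -1 to 1), over the 12 libraries on the left and of deviations from group means on the right. The blocks of activators and of Per2 with Per3 are positive in both, while activators with Per2 and Per3 are all negative over the libraries and, within groups, run from -0.49 (Arntl with Per2) to 0.20 (Clock with Per3).

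Of 10836 named genes with a mean of at least 1 CPM, those most like Arntl over the 12 libraries were Tgif1 (r = 0.90), Dnajb9 (0.90), Klhl30 (0.89), Mafk (0.89) and Zc2hc1c (0.87). Those most opposed were Lamtor2 (-0.92), Chmp5 (-0.87), Egflam (-0.87), Dpp3 (-0.86) and Dbp (-0.86). Dbp encodes a factor that binds D-boxes and is itself a clock output. Its level was 19.9 to 46.6 CPM in PCN, 37.1 to 41.0 CPM in Vehicle, 13.1 to 29.3 CPM in HFD and 13.1 to 24.4 CPM in Chow. Vehicle lay above HFD and Chow without overlap, and PCN overlapped all.

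Other genes of the clock were compared as a list. Of 37 listed modulators and outputs, 36 were tested in HFD against Chow and in PCN against Vehicle, and 0 were called by edgeR in either, with 2 and 1 at an unadjusted p under 0.05. The shares of all genes at that p were 7.7% in HFD against Chow, 2.82% in PCN against Vehicle, 17.8% in Vehicle against HFD and 20.7% in PCN against HFD, and the counts of the lists below are to be read beside them. Called genes made up 1.51% of all in Vehicle against HFD and 2.94% in PCN against HFD. At an unadjusted p under 0.05 (edgeR), 3 of 36 were higher and 5 lower in Vehicle against HFD. In PCN against HFD, 5 of 35 were higher and 6 lower at that p. In Vehicle against HFD, 2 of 36 were called lower. Ppargc1a, a coactivator of mitochondrial genes, fell by 1.02 ± 0.19 (SE) on the log2 scale (edgeR adjusted p = 0.0424) and the acetyltransferase Crebbp by 0.88 ± 0.18 (edgeR adjusted p = 0.0486). In PCN against HFD, 1 of 35 rose, the deubiquitinase Usp46, at 0.75 ± 0.17, and 2 fell, Crebbp at -0.92 ± 0.20 and Ep300 at -0.89 ± 0.19, with edgeR adjusted p-values of 0.0391 to 0.0453. Ep300 is named after its values were seen. Crebbp was 127 to 173 CPM in HFD and 76.8 to 160 CPM in Chow, and Ppargc1a 71.7 to 90.5 CPM in HFD and 53.2 to 183 CPM in Chow. The list's median log2 difference was 0.04 in Vehicle against HFD and -0.02 in PCN against HFD, beside -0.001 and 0.01 for all genes.

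Per1 is also a glucocorticoid-responsive and immediate early gene in many tissues, so lists of both kinds were set beside it. Of 22 glucocorticoid-responsive genes, 0 were called by edgeR in HFD against Chow and in PCN against Vehicle, with 5 and 1 at an unadjusted p under 0.05. In Vehicle against HFD, 1 fell, Foxo1, with a log2 difference of -1.03 ± 0.17 (SE, edgeR adjusted p = 0.0344). In PCN against HFD, 2 fell, Foxo1 at -1.37 ± 0.24 and Zbtb16 at -0.73 ± 0.16, with edgeR adjusted p-values of 0.0278 and 0.0404. Foxo1 was 19.0 to 36.0 CPM in PCN, 29.9 to 42.9 CPM in Vehicle, 62.4 to 88.1 CPM in HFD and 28.5 to 59.2 CPM in Chow. Zbtb16 was 173 to 204 CPM in HFD and 150 to 250 CPM in Chow. At an unadjusted p under 0.05 (edgeR), 1 of 22 was higher and 5 lower in Vehicle against HFD, and 0 higher and 8 lower in PCN against HFD. The median of the list was -0.06 in Vehicle against HFD and -0.30 in PCN against HFD. Pdk4, a kinase that restrains glucose oxidation, passed the 4-group test (edgeR adjusted p = 0.0374), with 1026 to 1499 CPM in PCN, 1091 to 1567 CPM in Vehicle, 1650.1 to 2087 CPM in HFD and 2946 to 3112 CPM in Chow. Klf9 had log2 differences of -0.37 ± 0.16 in Vehicle against HFD and -0.59 ± 0.19 in PCN against HFD, and passed in neither.

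Of 24 immediate early genes, 19 were tested in Vehicle against HFD with 0 called by edgeR and 5 at an unadjusted p under 0.05. In PCN against HFD, 3 of 20 fell, with log2 differences of -1.88 ± 0.29 (SE) for Nr4a3, -1.10 ± 0.20 for Nr4a1 and -0.98 ± 0.17 for Sik1, with edgeR adjusted p-values of 0.0263 to 0.0279, and Nr4a1 is named after its values were seen. Nr4a3 was 10.7 to 13.6 CPM in PCN, 11.0 to 15.4 CPM in Vehicle, 26.8 to 62.7 CPM in HFD and 17.4 to 74.5 CPM in Chow. In PCN against HFD, 0 of 20 were higher and 6 lower at an unadjusted p under 0.05 (edgeR). The list's median was -0.38 in Vehicle against HFD and -0.69 in PCN against HFD. The genes Jund and Junb had log2 differences of -0.14 ± 0.21 and -0.73 ± 0.47 in PCN against HFD, and 0.17 ± 0.18 and -1.02 ± 0.50 in Vehicle against HFD, and passed in neither. The list had 0 called in HFD against Chow and in PCN against Vehicle (edgeR), with 1 and 3 at an unadjusted p under 0.05.

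Of 18 genes known as targets of the muscle clock, 17 were tested in Vehicle against HFD and 1 fell, Tead1, with a log2 difference of -1.39 ± 0.27 (SE, edgeR adjusted p = 0.0499). In PCN against HFD, 2 of 17 fell, Tead1 at -1.49 ± 0.28 and Tbc1d1, a regulator of glucose transporter traffic, at -0.91 ± 0.20 (edgeR adjusted p = 0.0282 and 0.0424). Tead1 was 84.1 to 169 CPM in PCN, 90.8 to 180.0 CPM in Vehicle, 269 to 376 CPM in HFD and 132 to 331 CPM in Chow. Tbc1d1 was 66.7 to 106 CPM in PCN, 98.3 to 128 CPM in Vehicle, 153 to 183 CPM in HFD and 105 to 135 CPM in Chow. Hk2, the muscle hexokinase, had 270.0 to 350.0 CPM in PCN, 248 to 288 CPM in Vehicle and 360 to 373 CPM in HFD, and passed in neither comparison. Its level in Chow was 351 to 672 CPM. Of these targets, 0 were called by edgeR in HFD against Chow and in PCN against Vehicle, with 3 and 0 at an unadjusted p under 0.05. At that p, 3 of 17 were higher and 6 lower in Vehicle against HFD, and 1 of 17 higher and 5 lower in PCN against HFD.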

How the data were processed

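RNA was sequenced from 12 mouse muscle libraries. The authors deposited raw counts per Ensembl gene in 2 tables of 6 libraries. Per the submitters' processing notes, HISAT2, HTSeq and DESeq2 were used with GRCm38 (mm10), and versions, annotation and strand setting are unstated there. The tables held 24093 and 24453 genes, and 21976 in both were joined, which injected against uninjected comparisons and levels need. edgeR 4.0.16 in R 4.3.3 gave TMM normalization, the expression filter (minimum count 10) and the robust quasi-likelihood F test, with Benjamini-Hochberg adjustment over all genes. A fit of 2 groups held only their 6 libraries and the 4-group test all 12, and fold changes are the first-named group over the second, with SE from the fit. CPM uses TMM over 12 libraries unless stated, and log2 CPM a prior count of 2. Overlap of groups set beside a share of all genes was judged on CPM of the comparison's own fit of 6 libraries. Correlations used 100000 resamples, or 1296 exact permutations within groups. Alternatives included DESeq2 1.42.0. The members and lists were chosen with earlier results of these data known. Named genes are the members, up to 4 genes per list with the lowest p of the 4-group test, and the 5 most and 5 least like Arntl. Coordinates of the members matched the reference annotation, and the fits were tested on simulated counts. A gene that the naming rule takes is not reported here.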

Additional observations from a re-analysis of the deposited data

How the results depend on the processing

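No paired analysis was possible because the library numbers in the labels are unique to a group. In HFD against Chow, 3 of the members passed with no filter on low counts, where 237 of 24093 genes were called. In Vehicle against HFD, 3 passed at an adjusted p under 0.1, with DESeq2, with no filter and with the slow-fibre covariate (Tpm3 alone). The main fit called 193 of 12746 genes there. DESeq2 called 618 of 7792, the fit with no filter 571 of 21595 and that with the covariate 877 of 12746. With all 12 libraries in 1 fit, 0 members passed and 0 of 13375 genes were called. In PCN against HFD, 0 passed with all 12 libraries (554 of 13375 genes called). In the 4-group test, 1 passed at an adjusted p under 0.1, 1 with no filter and 2 with the slow-fibre covariate. With no filter 185 of 21976 genes were called, and with the covariate 109 of 13375. Of the pairs, 1 passed within groups, 3 without the 2 farthest libraries and 5 with a prior count of 0.5. The counts of members moved with 1 library left out, from 0 to 2 in HFD against Chow, 0 to 3 in Vehicle against HFD, 0 to 3 in PCN against HFD, 0 to 3 in the 4-group test and 2 to 14 for pairs, and stayed at 0 in PCN against Vehicle. Calls over all genes moved as well with 1 library left out. They ran from 0 to 219 in HFD against Chow and 0 to 1180 in Vehicle against HFD. In PCN against HFD they ran from 0 to 634, and in the 4-group test from 3 to 216. The cause was not tested.

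These signs turned. The log2 difference of Nr1d1 in HFD against Chow was 0.24 with the S number term, which rests on Chow 8 alone there. It was 0.22 with the slow-fibre covariate, which leans on Chow 8. In PCN against Vehicle it was 0.018 with the S number term. Nr1d2 in PCN against HFD was 0.00058 with DESeq2, 0.014 with no filter and 0.027 with the S number term, which rests on PCN 5 alone there. Within groups, the correlation was 0.80 for Arntl with Cry1, 0.084 for Clock with Per2, 0.20 for Clock with Per3, 0.61 for Clock with Cry1, -0.056 for Npas2 with Per1, 0.023 for Npas2 with Per3, 0.68 for Npas2 with Cry1 and 0.23 for Npas2 with Nr1d2. Without the 2 farthest libraries it was -0.17 for Npas2 with Cry2. Within PCN and Vehicle, an alternative chosen after seeing the data, it was -0.13 for Arntl with Nr1d1, 0.23 for Clock with Per2, 0.17 for Clock with Per3, 0.085 for Npas2 with Per3 and -0.025 for Npas2 with Nr1d1. Pairs that did not pass over the 12 libraries also turned there, to 0.96 for Arntl, 0.63 for Clock and 0.62 for Npas2 with Cry1, 0.49 for Npas2 with Nr1d2, and -0.56 for Arntl, -0.30 for Clock and -0.42 for Npas2 with Per1. Within HFD and Chow, -0.15 for Arntl and -0.085 for Npas2 with Per1, and -0.18 for Arntl, -0.032 for Clock and -0.088 for Npas2 with Cry2, had turned. With each library left out in turn, log2 differences that turned ran from -0.56 to 0.31 for Nr1d1 in HFD against Chow, -0.19 to 0.67 for Arntl in PCN against Vehicle, -0.11 to 0.086 for Clock in PCN against Vehicle, -0.12 to 0.11 for Per3 in PCN against Vehicle, -0.035 to 0.44 for Cry1 in PCN against Vehicle, -0.31 to 0.20 for Cry2 in PCN against Vehicle, -0.14 to 0.23 for Nr1d1 in PCN against Vehicle, -0.47 to 0.066 for Cry2 in PCN against HFD and -0.043 to 0.061 for Nr1d2 in PCN against HFD.

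Over all these alternatives and results of single members or pairs, 417 values kept the direction and side of the threshold (or the direction, where no test was run), 32 lost a call with the same direction, 15 gained one and 32 turned sign. Where 1 library was left out, 488 kept them, 76 lost a call, 13 gained one and 17 turned sign. With 3 libraries a group, small differences are not resolved, and Npas2, with at most 27 counts in a library, carries a large counting error.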
